A study of Oryzias latipes with 24 samples.

Results

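The comparison of stage 41 with stage 40 covers the step from medaka embryos around hatching to young larvae. It was made over 4 of the 24 samples of the series, chosen by their stage labels: the 2 libraries of stage 41 and the 2 libraries of stage 40. Medaka (Oryzias latipes) is a small egg-laying fish, and the study profiled poly(A) RNA over 11 stages of its development with 22 RNA-seq libraries. Each stage 41 library and each stage 40 library was made from a pool of whole animals, so the spread between libraries is a spread between pools. The first library of either stage came from the inbred strain Hd-rR, and the second is labelled d-rR / Qurt. The study lists the d-rR fish as a transgenic line with GFP under the promoter of olvas, the medaka vasa gene active in germ cells, and Qurt as a strain of its own. No treatment was given to either stage. At both stages the strain and the replicate number coincide, so they cannot be told apart. The labels give the whole embryo as the source of the stage 41 samples too, and the study's text speaks of larvae. Wherever a pair of values is given for a stage, the Hd-rR library stands before the d-rR / Qurt library.

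Medaka embryos leave the egg with the help of hatching enzymes, proteases of the astacin family that hatching gland cells in the mouth and pharynx store and then release onto the egg envelope. The young larva swims, takes in its first food while yolk is used up, forms bone and begins to build the organs of adaptive immunity. Its red blood cells change the globin chains they carry, as happens in many vertebrates around birth or hatching. Differences between the stages are given on log2(TPM + 1), where TPM (a share of the library's transcripts corrected for gene length) is the unit of all levels, as stage 41 minus stage 40 with the standard error of the fit. A gene was called when limma's test over the 22 libraries gave a Benjamini-Hochberg adjusted p under 0.05 and a difference of at least 1, which is 2-fold. The p-values and standard errors measure the spread between these libraries only, pooled over the 11 stages. At the 9 other stages both libraries are Hd-rR. Most of that spread is therefore within 1 strain, and a difference between strains enters it at stages 40 and 41 only.

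The 4 libraries held 18977 and 19182 genes at 1 TPM or more at stage 41, against 19073 and 19501 at stage 40. TPM keep no read depth, so the depth is unknown. Across genes the libraries of stage 41 correlated at a Spearman rho of 0.955 and those of stage 40 at 0.946, and the libraries of different stages at 0.865 to 0.892. The model of the GFP reporter stood at 0.286 and 14 TPM at stage 41 and at 0.0431 and 3.78 TPM at stage 40, with a highest value of 1.84 TPM in the other 18 libraries, so it followed the strain label. A set of 8 models on 3 unplaced contigs, none with a RefSeq match, was chosen after its values were seen. The choice was for levels that went with the library and not with the stage. The set took 3.18 and 0.348% of the TPM at stage 41 and 0.834 and 5.10% at stage 40. By that choice the level of these models was high in 1 library of each stage and low in the other, and 0 of the 8 was called. Genes of the mitochondrial genome took 1.65 and 2.68% at stage 41 and 4.31 and 3.15% at stage 40.

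Of 21179 genes tested, 1105 (5.22%) were called higher and 2057 (9.71%) lower at stage 41. The falls were the more numerous and the rises the larger: 485 rises and 171 falls reached 4-fold, and 162 rises and 12 falls a log2 difference of 4 or more. The called rises together took 12.8 and 13.6% of the TPM at stage 41 and 2.34 and 2.44% at stage 40. The called falls took 2.57 and 2.51% at stage 41 and 9.43 and 8.07% at stage 40. The libraries of the stages did not overlap for 53.6% of all genes tested, and for 1102 of the called rises and all 2057 called falls. Every called gene moved the same way in both strains, beside 71.0% of all genes tested. The call rests on the mean of both strains, so it favours genes that agree between them. In each strain taken alone, 848 rises and 1463 falls reached a log2 difference of 1.

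The median over all genes tested was -0.22 on the log2 scale, with -0.29 in Hd-rR and -0.16 in d-rR / Qurt. Quantile normalization shifted this median by 0.155 and median-of-ratios scaling by 0.183. Rises made up 34.9% of the calls and falls 65.1% as deposited, 48.1 and 51.9% after quantile normalization, and 47.6 and 52.4% with median-of-ratios scaling. The excess of falls over rises was thus smaller under other scalings, and with the Hd-rR libraries only there were 804 rises and 738 falls, with the d-rR / Qurt libraries only 884 and 908. No gene called here was called in the opposite direction under any alternative that was run. Leaving out a single library of either stage gave fewer falls in each case, with the median over all genes between -0.323 and -0.13. Such a fit, like that of 1 strain, leaves 1 library at a stage and has a wider standard error. A call lost in it, here and below, therefore does not show that the library left out was unlike the others.

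**Figure D1:**
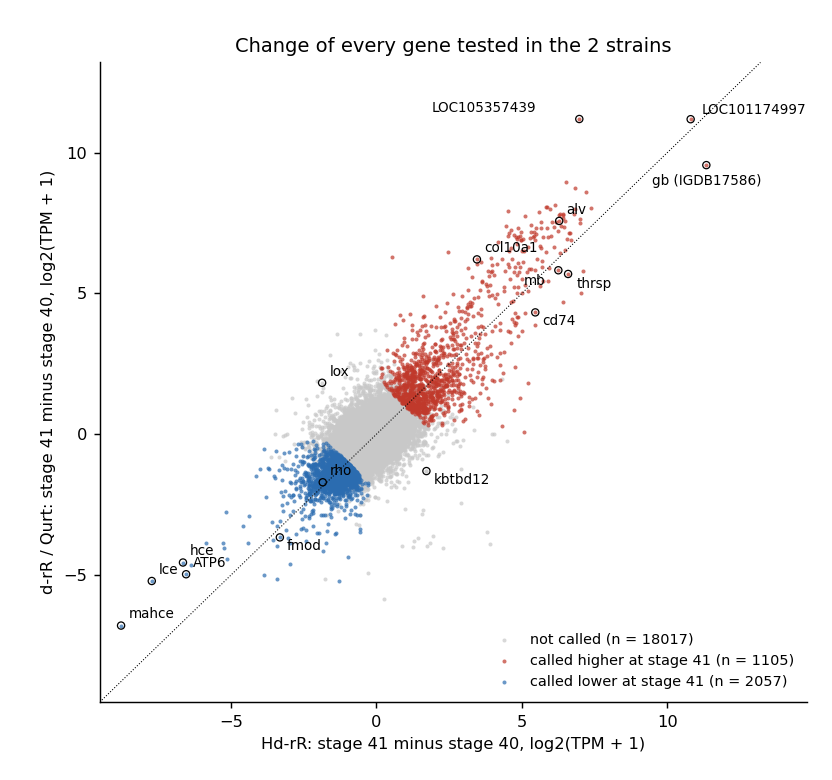
Difference between stage 41 and stage 40 in Hd-rR (x axis) and in d-rR / Qurt (y axis) on log2(TPM + 1) for each of the 21179 genes tested, red where called higher, blue where called lower and grey where not called. Called genes lie along the dotted line of equal change, with mahce, lce and hce at the low end and LOC101174997 and gb at the high end, while lox and kbtbd12 moved in opposite directions in the strains.

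Most called rises had their highest mean of the series at stage 41, and most called falls had it before stage 40. No called rise had it at stage 40 and no called fall at stage 41, which follows from the direction of the call. Among the 1105 called rises, 764 had their highest stage mean at stage 41, 205 at stage 6 and 75 at stage 11. Among the 2057 called falls the highest mean lay at stage 38 for 812 genes, at stage 36 for 460, at stage 40 for 298 and at stage 32 for 206. Of the genes not called, 1635 also had their highest mean at stage 41, 4339 had it at stage 6 and 1741 at stage 11. A further 1267 had it at stage 32, 1669 at stage 36, 1497 at stage 38 and 1199 at stage 40. Highest means at stage 6 or before stage 40 were thus not particular to the called genes.

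Hatching enzyme genes were lost almost entirely. The gene mahce (IGDB21751, chromosome 3, 32681288-32682284) stood at 0.0591 and 0 TPM at stage 41, against 462 and 109 TPM at stage 40, a difference of -7.78 ± 0.57 (limma adjusted p = 2.8e-08). Close to it on chromosome 3, at 32709884-32710789, lies hce, the high choriolytic enzyme that swells the egg envelope. Its level was 0.0160 and 0.0115 TPM at stage 41, against 101 and 22.7 TPM at stage 40 (-5.60 ± 0.55). The partner enzyme lce, low choriolytic enzyme, which dissolves the swollen envelope (chromosome 24, 9947245-9950219), reached 0.0749 and 0.0807 TPM at stage 41, against 225 and 38.9 TPM at stage 40 (-6.46 ± 0.56). All 3 genes were already past their highest levels at stage 40: hce and lce had stage means of 1032 and 1788 TPM at stage 32, and mahce 716 TPM at stage 36. At stage 40 each of the 3 was 4 to 6 times as high in Hd-rR as in d-rR / Qurt, and at stage 41 each was below 0.1 TPM in both. Of the hatching gland markers, xbp1, a factor of many secretory cells, had 194 and 267 TPM at stage 41 and 159 and 160 TPM at stage 40 and was not called. In pools of whole animals, fewer cells of a type and less RNA per cell cannot be told apart, here and below.

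The largest rise of all genes, and the largest of the named genes with a symbol, belonged to the globin regions. Their models without a symbol were chosen after their values were seen. Outside these regions LOC105357439 (IGDB14233, chromosome 14), chosen in the same way, had 145 and 2338 TPM at stage 41. At stage 40 it had 0.160 and 0 TPM (9.08 ± 0.72), with changes of 6.97 in Hd-rR and 11.2 in d-rR / Qurt. On chromosome 19 the globin gene gb (IGDB17586, 3029296-3030276) had 6373 and 2269 TPM at stage 41, against 1.46 and 2.02 TPM at stage 40, a difference of 10.45 ± 0.53 (limma adjusted p = 7.2e-10). On chromosome 8, LOC101174997 (IGDB25176, 8230043-8231109) had 2189 and 2813 TPM at stage 41, against 0.227 and 0.210 TPM at stage 40, the largest difference of all genes at 10.99 ± 0.21 (adjusted p = 5.8e-16). Neither had passed a stage mean of 5.74 TPM at an earlier stage, so both appeared as abundant transcripts only in the larva among the stages sampled. Between 8212545 and 8214957 on chromosome 8 lie LOC101175481 and LOC101158529, which had stage means of 5737 and 5621 TPM at stage 29. LOC101175481 fell to 2.52 and 0.287 TPM at stage 41, against 17.9 and 12.5 TPM at stage 40 (-2.91 ± 0.66, adjusted p = 0.0052). LOC101158529 fell to 0.494 and 0 TPM at stage 41, against 6.49 and 6.39 TPM at stage 40 (-2.61 ± 0.65, adjusted p = 0.0098). Thus within 1 stretch of chromosome 8 1 model rose to 2189 and 2813 TPM at stage 41 while others, abundant at mid-development, fell to a few TPM or less.

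A further copy of gb on chromosome 19 (IGDB04689, 3027077-3027909), chosen after its values were seen, stayed low. It had 2.65 and 2.76 TPM at stage 41, against 0 and 0 TPM at stage 40 (1.89 ± 0.61, limma adjusted p = 0.040). The annotated globin genes of chromosome 8, IGDB09454 and IGDB25177, had unlike values in the strains, with 1 library each. The test of the strain difference called neither. The copy of gb with the synonym Gb-beta1 (IGDB09454, chromosome 8) had 2949 and 204 TPM at stage 41, against 439 and 241 TPM at stage 40, and was not called. The Gb-alpha0 gene, LOC101155030 (IGDB25177), had 2352 and 288 TPM at stage 41, against 799 and 531 TPM at stage 40, and was not called. Its highest stage mean was 7794 TPM, at stage 32. For IGDB09454 and IGDB25177, the Hd-rR larvae were above and the d-rR / Qurt larvae below all embryos of stage 40. The model IGDB04688 spans both gb copies of chromosome 19 on the opposite strand (3025017-3129059). It had 4111 and 976 TPM at stage 41, against 368 and 149 TPM at stage 40 (3.09 ± 0.89, adjusted p = 0.022). Its highest stage mean was 2683 TPM, at stage 32, where gb IGDB17586 had 5.74 TPM. Whether strand was used in the counting is not given in the sources used here, and read sharing between gb and this model was not tested. Reads of similar globin copies may have been split between them. Of other red cell genes, rhag, an ammonia transporter of the red cell membrane, had 46.9 and 74.4 TPM at stage 41, against 139 and 130 TPM at stage 40 (-1.17 ± 0.32, adjusted p = 0.017), a call that was lost with median-of-ratios scaling and without 3 of the 4 libraries in turn. The haem enzyme genes urod and fech were not called.

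**Figure D2:**
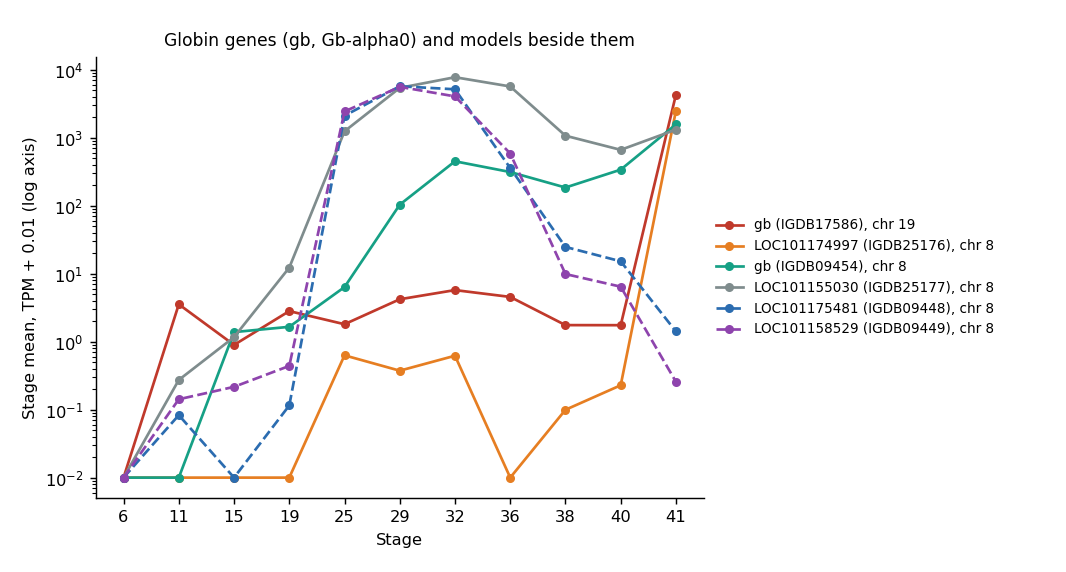
Stage means (TPM + 0.01, log axis) of 3 models of annotated globin genes and of 3 models beside them over the 11 stages. The chromosome 19 gb (IGDB17586) and LOC101174997 lie at or below 5.74 TPM up to stage 40 and at 4321 and 2501 TPM at stage 41. LOC101175481 and LOC101158529 peak at stage 29 and end at 1.40 and 0.247 TPM.

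The 15 largest rises and falls among genes with a symbol spanned lipid, immune, oocyte and skeletal genes on one side and hatching, eye, cartilage and nerve genes on the other. Lipid genes included thrsp, a nuclear protein that promotes fatty acid synthesis, with 526 and 539 TPM at stage 41, against 4.47 and 9.45 TPM at stage 40 (6.14 ± 0.64, limma adjusted p = 2.6e-06). The oxygen-binding muscle protein gene mb, myoglobin, reached 148 and 81.4 TPM at stage 41, against 0.958 and 0.455 TPM at stage 40 (6.04 ± 0.43). The basement membrane gene lamb3, a laminin chain of epithelia, had 54.9 and 44.7 TPM at stage 41, against 0.727 and 0.402 TPM at stage 40 (5.02 ± 0.31). Its stage mean was 78.0 TPM at stage 6 and 39.6 TPM at stage 11, so it is also 1 of the early genes described below. The haem-binding plasma protein gene hpx had 512 and 211 TPM at stage 41, against 29.7 and 13.7 TPM at stage 40 (3.96 ± 0.80). For all 4 the libraries of the stages stood apart by at least 7-fold. Of the 15 falls, ATP6 of the mitochondrial genome rests on unequal libraries: it had 0.638 and 0.170 TPM at stage 41, against 151 and 35.6 TPM at stage 40 (-5.75 ± 1.56, adjusted p = 0.015), and it had 0.224 TPM at stage 38. It overlaps ATP8 by a few bases, it was the only 1 of 13 mitochondrial genes called, and its call was lost without either library of stage 41 and without the Hd-rR library of stage 40.

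**Figure D3:**
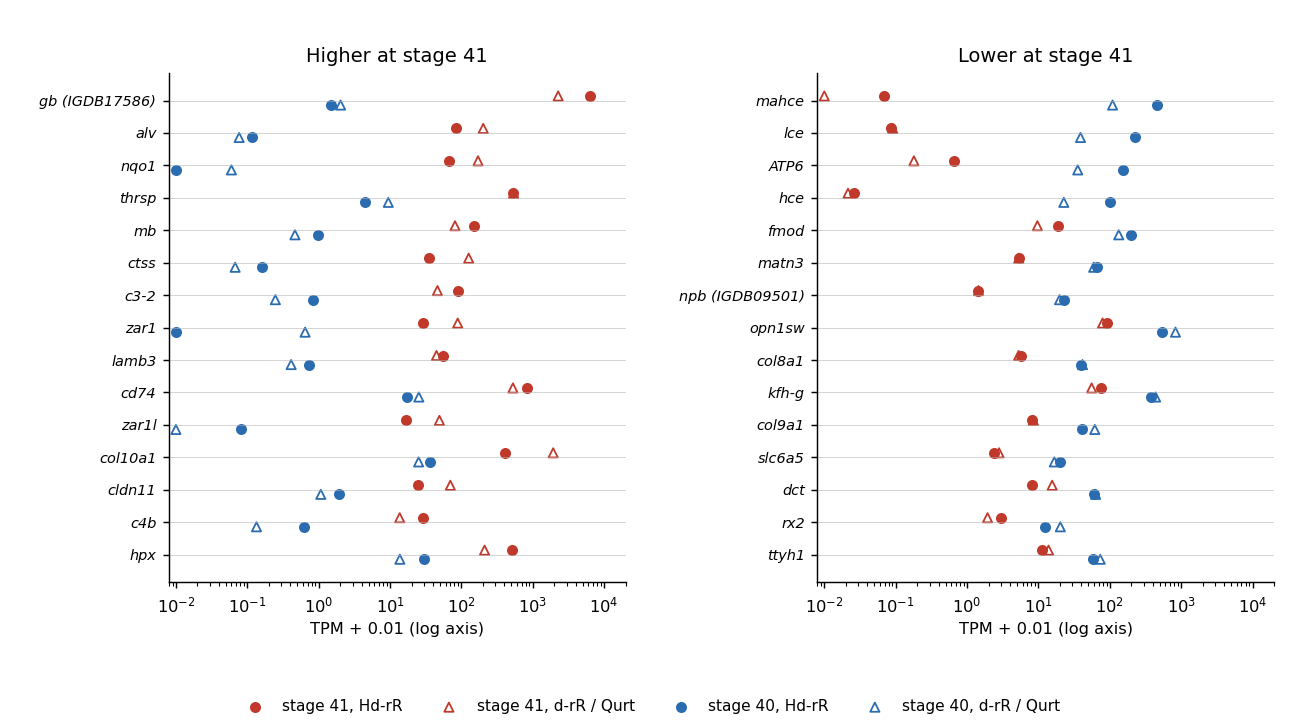
TPM in each library (TPM + 0.01, log axis) of the 15 largest rises (left) and the 15 largest falls (right) among called genes with a symbol, circles for Hd-rR and triangles for d-rR / Qurt, red for stage 41 and blue for stage 40. The genes were chosen for no overlap of the stages, so in each the stage 41 symbols lie on one side of the stage 40 symbols. They run from gb at 6373 and 2269 TPM at stage 41 to mahce at 0.0591 and 0 TPM.

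Most of the immune markers were called higher. The gene lists, here and below, were chosen with earlier results of these data known. The shares called thus describe the lists and are not a test of them. Of 18 immune markers tested, 11 were called higher and 1 lower, beside 5.22 and 9.71% of all genes. Their median was 1.37 beside -0.22 over all genes, and leaving out single libraries gave 10 to 12 rises. The invariant chain gene cd74, which guides MHC class II molecules to the antigen-loading compartment, had 817 and 527 TPM at stage 41, against 17.6 and 25.3 TPM at stage 40 (4.90 ± 0.32, limma adjusted p = 8.8e-09). The recombinase gene rag1, which cuts antigen receptor genes in developing lymphocytes, had 25.7 and 22.3 TPM at stage 41, against 3.31 and 4.33 TPM at stage 40 (2.38 ± 0.25). Its partner rag2 had 2.48 and 3.10 TPM at stage 41, against 0.419 and 0.449 TPM at stage 40 (1.40 ± 0.15). Both recombinase genes were thus about 6 times as high in the larvae, with close agreement of the strains. Other rises in the list were lyz, lysozyme, ptprc, the leukocyte surface phosphatase CD45, ncf1 of the phagocyte oxidase, spi1, a factor of myeloid and B cells, and mmp9, a matrix protease of leukocytes. Transcripts of irf8, an interferon regulatory factor needed by macrophages, fell to 5.48 and 7.15 TPM at stage 41, against 44.2 and 26.3 TPM at stage 40 (-2.27 ± 0.41), and they had been as high as 44.0 TPM on average at stage 6. The markers cd4, tap1, tapbp, ncf4, ccr7 and rsad2 were not called.

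Some lymphocyte genes outside the list, for a receptor subunit and for kinases, were also called higher, at low levels. They were named after their values were seen, so their direction adds nothing to the result of the list. The B cell receptor subunit gene cd79b had 5.47 and 5.07 TPM at stage 41, against 0.190 and 0.557 TPM at stage 40 (2.2 ± 0.19, limma adjusted p = 2.3e-07). For the T cell kinase gene itk the levels were 6.56 and 6.90 TPM at stage 41, against 0.221 and 0.761 TPM at stage 40 (2.40 ± 0.17). The kinase gene lck, of T cell receptor signalling, had 4.63 and 3.65 TPM at stage 41, against 0.572 and 0.813 TPM at stage 40 (1.60 ± 0.17). In each of these the lower larval pool was at least 4 times the higher embryo pool.

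A run of 7 adjacent genes called higher lay on chromosome 11 at 15838238-15992811, where the gene models hold members of the MHC class I region, and orla-uaa and abcb3 in it were chosen after their values were seen. Its members with a symbol were psmb8, psmb9 and psmb9-like, catalytic subunits of the immunoproteasome, the class I gene orla-uaa, and abcb3, whose symbol names a peptide transporter. The subunit gene psmb8 had 26.3 and 37.5 TPM at stage 41, against 0.760 and 4.35 TPM at stage 40 (3.40 ± 0.37, limma adjusted p = 4.8e-06). Next to it psmb9-like had 15.1 and 11.8 TPM at stage 41, against 0.0695 and 0.460 TPM at stage 40 (3.52 ± 0.21). The class I gene orla-uaa had 76.9 and 56.6 TPM at stage 41, against 6.0 and 7.83 TPM at stage 40 (3.09 ± 0.34). These 3 immunoproteasome subunits were the 3 of 30 proteasome genes called, beside rises in 5.22% of all genes tested. Of them, psmb8 and psmb9 were also counted among the immune markers called higher. The most abundant subunit of the proteasome list, psmb7, had 161 and 164 TPM at stage 41 and 283 and 171 TPM at stage 40 and was not called. Named after their values were seen, the class I light chain gene orla-b2m and the proteasome activator genes psme1 and psme2, on other chromosomes, were also called, with differences of 1.82, 1.34 and 1.82.

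Several genes of complement, plasma proteins that mark and lyse microbes, were among the calls, and no list of all complement genes was tested. The gene c3-1, chosen after its values were seen, had 788 and 691 TPM at stage 41, against 129 and 118 TPM at stage 40 (2.57 ± 0.27, limma adjusted p = 2.7e-06). Its neighbour c3-2 had 89.6 and 46.1 TPM at stage 41, against 0.835 and 0.237 TPM at stage 40 (5.44 ± 0.29), over a long model (chromosome 1, 27845419-28141533) that may share reads with c3-1. The gene c4b had 29.3 and 13.6 TPM at stage 41, against 0.605 and 0.125 TPM at stage 40 (3.97 ± 0.26). The terminal component gene c9 had 440 and 285 TPM at stage 41, against 96.1 and 92.3 TPM at stage 40 (1.90 ± 0.33). Among 26 hepatocyte markers, hpx, c9, itih3, c5 and shbg were called higher and none lower, beside rises in 5.22% of all genes. Their median was 0.56, and leaving out single libraries gave 4 to 6 rises. The most abundant marker of that list, rbp4, the plasma retinol carrier, had 825 and 828 TPM at stage 41 and 986 and 739 TPM at stage 40.

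A set of genes abundant in the early embryo and nearly absent at stage 40 was seen again in the larvae. Of 306 tested genes with a mean of at least 10 TPM at stage 6 and under 1 TPM at stage 40, 216 (70.6%) were called higher at stage 41. Genes under 1 TPM at both stage 6 and stage 40 were called higher in 235 of 1155 cases (20.3%), and all genes tested in 5.22%. The filter admits a gene with 1 TPM in 2 libraries. Some of the 1155 may thus have entered through the stage 41 libraries alone, which can raise the 20.3%. A gene under 1 TPM at stage 40 has little room to be called lower, and none of either set was. Without the limit at stage 40, 347 of 9232 tested genes with a mean of at least 10 TPM at stage 6 (3.76%) were called higher. The return in the larvae was thus seen in the set chosen for low levels at stage 40 and not in early genes at large. The 216 genes had medians of 13.9 and 33.1 TPM at stage 41, against 0.0769 and 0.0856 TPM at stage 40, with a median of 105 TPM at stage 6. At stage 41, 205 of the 216 were higher in d-rR / Qurt than in Hd-rR, and their summed level was 6276 and 17110 TPM, against 40.8 and 46.4 TPM at stage 40. The number called ranged from 157 with a pseudocount of 5 TPM to 233 with median-of-ratios scaling. Only 31 of the 216 carry a symbol, 142 a LOC number, and 43 had no RefSeq match.

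The members with a symbol included several genes that act in oocytes and germ cells. The gene zar1 (chromosome 4, 1220519-1221856), needed for the transition from oocyte to embryo in the mouse, had 29.2 and 88.8 TPM at stage 41, against 0 and 0.636 TPM at stage 40 (5.35 ± 0.48, limma adjusted p = 3.6e-07). Its relative zar1l had 16.9 and 49.2 TPM at stage 41, against 0.0726 and 0 TPM at stage 40 (4.85 ± 0.40). The oocyte growth factor gene bmp15 reached 6.65 and 20.8 TPM at stage 41, against 0.0567 and 0.0538 TPM at stage 40 (3.61 ± 0.48). The bHLH factor gene figla, which drives egg coat genes in mouse oocytes, had 6.83 and 14.5 TPM at stage 41, against 0.145 and 0.0982 TPM at stage 40 (3.30 ± 0.46). Transcripts of alv, alveolin, an astacin-like protease of the egg cortex that starts the hardening of the egg envelope in medaka, reached 85.1 and 202 TPM at stage 41, against 0.106 and 0.0669 TPM at stage 40 (6.93 ± 0.45). Another astacin family gene therefore rose at the step at which hce and lce were lost. In all 5 genes the d-rR / Qurt larvae had more than 2 times the level of the Hd-rR larvae.

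Of 19 germ cell markers tested, 9 were called higher and none lower, beside rises in 5.22% of all genes. Their median was 1.51, with 0.94 in Hd-rR and 1.74 in d-rR / Qurt. The list lost 3 of its 9 calls without the d-rR / Qurt library of stage 41. The germ cell RNA helicase gene ddx4, the vasa gene, had 7.98 and 24.1 TPM at stage 41, against 1.05 and 2.73 TPM at stage 40 (2.44 ± 0.43, limma adjusted p = 0.00079). The GFP reporter under its promoter showed the same order in the d-rR / Qurt pools, at 14 TPM at stage 41 and 3.78 TPM at stage 40, without a call over both strains. The piRNA pathway genes piwil1, tdrd1 and tdrd9 and the germ cell repressor gene nanos3 were also called, while dazl, dnd1, sycp1 and dmc1 were not. The markers dazl, dnd1 and sycp1 stayed under 1 TPM in all 4 libraries. Named after its values were seen, gsdf, a growth factor gene of the supporting cells around germ cells in medaka, had 4.15 and 9.30 TPM at stage 41, against 1.29 and 2.28 TPM at stage 40 (1.41 ± 0.26, adjusted p = 0.0011).

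**Figure D4:**
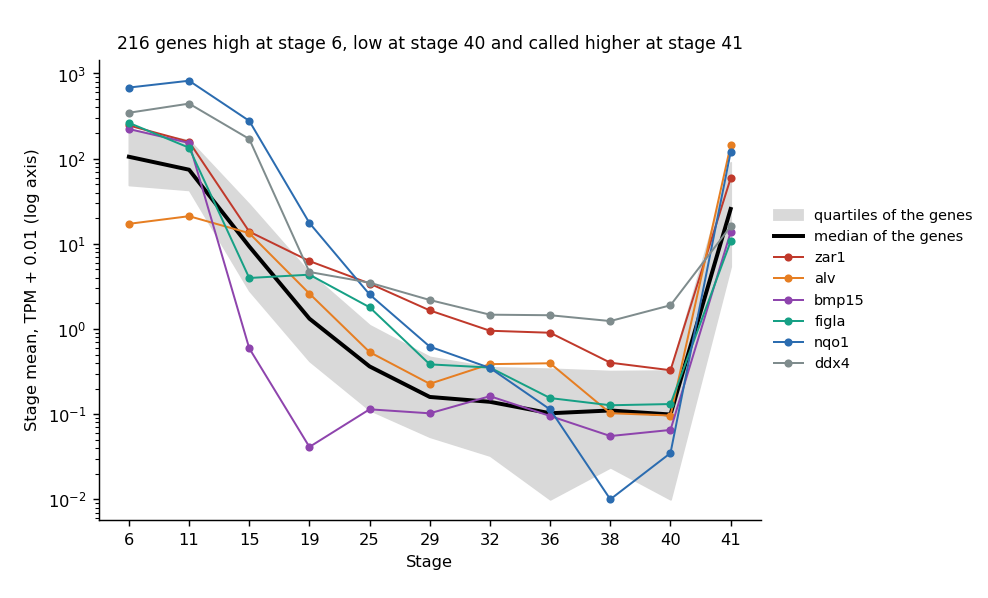
Stage means (TPM + 0.01, log axis) over the 11 stages of the 216 genes with at least 10 TPM at stage 6 and under 1 TPM at stage 40 that were called higher at stage 41 (black line, median; grey, quartiles), with 5 of their members and ddx4. The median is 105 TPM at stage 6, between 0.0890 and 0.149 TPM from stage 29 on until stage 40, and stands at 25.6 TPM at stage 41, as the set was chosen to show, and at stage 41 zar1, alv and nqo1 lie above the median, and bmp15, figla and ddx4 below it.

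Several of these genes lay side by side. Runs of at least 4 adjacent tested genes with the same call were counted over all called genes. They numbered 17 with 92 genes for rises and 6 with 25 genes for falls. Not every run of rises held early genes. In the class I run of chromosome 11, 2 of the 7 genes had at least 10 TPM at stage 6. In the runs with c3-1 and with the chromosome 19 gb copies, 0 had. The longest, 14 genes on chromosome 15 at 7437915-7691038, had 22.6 to 163 TPM in Hd-rR and 102 to 746 TPM in d-rR / Qurt at stage 41, and at most 0.799 and 1.67 TPM at stage 40. All 14 had at least 10 TPM at stage 6, and 1 of them, IGDB14925, is listed as a long noncoding RNA. A second run of 9 genes on chromosome 6 at 27255387-27295646 had 14 to 165 TPM in Hd-rR and 38.9 to 264 TPM in d-rR / Qurt at stage 41, with none above 0.107 TPM at stage 40. None of the genes in either run carries a symbol, and near-identical copies may share reads, so their separate levels are uncertain. Runs of 5 and 4 such genes on chromosome 19 end less than 100 kb before the globin genes described above.

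Several eye genes fell, in cones, rods and lens. Of 9 cone markers 4 were called lower, of 8 lens markers 5, and of 5 rod markers 2, with medians of -1.17, -1.31 and -0.63, and none of the 3 lists had a rise. Over all genes tested 9.71% were called lower. The short-wave cone opsin gene opn1sw had 90.0 and 79.2 TPM at stage 41, against 543 and 832 TPM at stage 40 (-2.98 ± 0.39, limma adjusted p = 3.6e-05). The green cone opsin gene kfh-g had 74.9 and 55.7 TPM at stage 41, against 380 and 439 TPM at stage 40 (-2.64 ± 0.29). Rhodopsin, rho, the rod pigment gene, had 1580 and 1132 TPM at stage 41, against 5663 and 3684 TPM at stage 40 (-1.77 ± 0.39, adjusted p = 0.0043). The opsin genes were thus about 3 to 8 times as high around hatching as in the larvae, and all 3 had their highest stage mean at stage 40. The call of rho was lost without the Hd-rR library of stage 40 and without the d-rR / Qurt library of stage 41. In the lens, the beta crystallin gene cryba4 had 419 and 564 TPM at stage 41, against 2282 and 1428 TPM at stage 40 (-1.89 ± 0.36). The lens filament genes bfsp1 and bfsp2 were also called, and both calls were lost without the Hd-rR library of stage 41, that of bfsp1 also without the Hd-rR and that of bfsp2 without the d-rR / Qurt library of stage 40. The chaperone-like crystallin gene cryaa had 51.3 and 64.3 TPM at stage 41 and 86.1 and 83.7 TPM at stage 40 and was not called. The cone list had 2 falls without either library of stage 41 or the Hd-rR library of stage 40, and the lens list had 3 without the Hd-rR library of stage 41.

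Nerve genes fell across transmitter types. Of 28 neuron markers 15 were called lower and none higher, with a median of -1.37, beside falls in 9.71% of all genes tested. The libraries of the stages did not overlap for 27 of the 28, beside 53.6% of all genes tested. The glycine transporter gene slc6a5 had 2.37 and 2.80 TPM at stage 41, against 19.8 and 16.7 TPM at stage 40 (-2.42 ± 0.37, limma adjusted p = 0.00019). For the GABA synthesis gene gad2 the levels were 12.2 and 10.4 TPM at stage 41, against 56.7 and 39.4 TPM at stage 40 (-1.98 ± 0.43). The glutamate transporter gene slc17a6 had 8.54 and 11.4 TPM at stage 41, against 32.4 and 43.2 TPM at stage 40 (-1.82 ± 0.47, adjusted p = 0.011). The synaptic gene snap25, the most abundant of the list, had 96.5 and 88.9 TPM at stage 41, against 147 and 249 TPM at stage 40, and was not called, and nefm, a neurofilament gene, was the 1 marker with a positive difference, at 0.38. Without either the Hd-rR library of stage 41 or the d-rR / Qurt library of stage 40 the list had 9 falls. Neural progenitor markers gave 7 falls of 19, among them pax6, sox11, neurod1 and the glial glutamate transporter gene slc1a2, and 3 falls without the Hd-rR library of stage 40 or the d-rR / Qurt library of stage 41. The calls of sox11 and slc1a2 were each lost without 3 of the 4 libraries in turn. Pituitary and islet markers gave 6 falls of 18, among them isl1, the prohormone convertase gene pcsk2 and the granule genes chgb and scg2, with 4 to 6 falls without single libraries.

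Among transcription factors the falls outnumbered the rises. Of 1571 factors tested, 38 (2.42%) were called higher and 206 (13.1%) lower, beside 5.22 and 9.71% of all genes. Falls of factors numbered 137 without the Hd-rR and 99 without the d-rR / Qurt library of stage 41, and 122 without the Hd-rR and 137 without the d-rR / Qurt library of stage 40. Homeobox genes took 73 of these falls among 226 tested (32.3%), with a median of -0.85, and nanog was their 1 rise. The median stayed negative after quantile normalization (55 falls) and with median-of-ratios scaling (-0.77, 65 falls), and there were 39 falls without the d-rR / Qurt library of stage 41 and 46 without the Hd-rR library of stage 40. The retinal homeobox gene rx2 had 2.94 and 1.93 TPM at stage 41, against 12.4 and 20.3 TPM at stage 40 (-2.31 ± 0.35, limma adjusted p = 0.00016). The LIM homeobox gene lhx5, of forebrain and hindbrain neurons, had 2.04 and 1.36 TPM at stage 41, against 11.0 and 10.8 TPM at stage 40 (-2.15 ± 0.30). Named after their values were seen, otx2, six6 and lhx2, factors of eye and forebrain, were called lower with differences of -1.63, -1.57 and -1.74. Falls also numbered 8 of 17 in the Pou family, 24 of 122 in bHLH and 10 of 61 in fork head. In HMG they numbered 7 of 61 (11.5%), near the 9.71% of all genes. The largest family, the C2H2 zinc fingers, had 24 falls of 551 (4.36%), and none of 18 GATA and 22 THAP factors fell. There were 3 falls in the Pou family without the d-rR / Qurt library of stage 41, and 13 in bHLH without that library and 12 without the d-rR / Qurt library of stage 40. The bZIP family had 8 rises and 7 falls of 77, with fosb among the rises, and ETS had 1 rise, spi1, and no fall of 27. The bZIP gene fosl1 lost its call without the Hd-rR library of stage 41 or the d-rR / Qurt library of stage 40, and cebpd lost it without each of the 4 libraries in turn.

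The factor genes with a symbol and the largest rises were nr0b2, figla and gtf3a. Levels of nr0b2, a nuclear receptor without a DNA-binding domain that represses bile acid synthesis, were 44.5 and 77.8 TPM at stage 41, against 5.11 and 3.52 TPM at stage 40 (3.51 ± 0.44, limma adjusted p = 2.2e-05). The gene gtf3a, for a factor of ribosomal RNA transcription that is abundant in oocytes of frogs, had 17.4 and 44.2 TPM at stage 41, against 1.33 and 2.84 TPM at stage 40 (3.27 ± 0.43). Named after its values were seen, nanog, a pluripotency factor with 1125 TPM at stage 11, had 5.09 and 12.6 TPM at stage 41, against 0.147 and 0.0681 TPM at stage 40 (3.04 ± 0.34). Apart from nr0b2 these genes had their highest levels at stage 6 or 11. Of 47 patterning and morphogen genes tested, 12 were called lower and none higher, beside falls in 9.71% of all genes. There were 7 falls without the Hd-rR library of stage 40, 6 without the d-rR / Qurt library of stage 40 and 5 without the d-rR / Qurt library of stage 41. The 12 included the hedgehog ligand gene shh, with 3.01 and 2.64 TPM at stage 41, against 14.2 and 12.3 TPM at stage 40 (-1.90 ± 0.41), and the Wnt ligand genes wnt11, wnt7a and wnt3.

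Pigment genes fell more in Hd-rR than in d-rR / Qurt by their medians, at -1.19 and -0.11, and this difference was not tested. Of 25 pigment cell markers 8 were called lower and 1 higher, beside 9.71 and 5.22% of all genes tested. There were 3 falls without either of the Hd-rR library of stage 40 and the Hd-rR library of stage 41. The melanin synthesis gene dct had 8.07 and 15.6 TPM at stage 41, against 59.9 and 63.4 TPM at stage 40 (-2.35 ± 0.39, limma adjusted p = 0.00039). The melanosome matrix gene pmel had 35.6 and 99.6 TPM at stage 41, against 217 and 127 TPM at stage 40 (-1.46 ± 0.44), with a change of -2.57 in Hd-rR and -0.34 in d-rR / Qurt. Its call was lost without either Hd-rR library. The other falls included the transporter genes slc45a2, slc24a5, slc2a15b and slc2a11b and the pteridine synthesis gene pts.

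Skeletal genes moved in both directions. Of 11 osteoblast markers 4 were called higher and none lower, with a median of 1.16, and of 18 chondrocyte markers 1 was called higher and 4 lower, with a median of -0.30. Over all genes tested 5.22% were called higher and 9.71% lower. The collagen gene col10a1, made by bone-forming cells in medaka, had 404 and 1933 TPM at stage 41, against 35.8 and 25.1 TPM at stage 40 (4.83 ± 0.60, limma adjusted p = 2.3e-05). The bone collagen gene col1a2 had 1141 and 1664 TPM at stage 41, against 404 and 273 TPM at stage 40 (2.05 ± 0.40). A model with the symbol postn, periostin (IGDB14345), had 238 and 369 TPM at stage 41, against 24.5 and 85.3 TPM at stage 40 (2.66 ± 0.48), and a second model with that symbol was not called. These 3 genes and entpd5 were the rises of the osteoblast list, which had 7 after quantile normalization and 8 with median-of-ratios scaling, 1 with the 4 libraries alone and 2 with the Hd-rR libraries only. The falls of the chondrocyte list were matn3, fmod, col9a1 and sox9. The cartilage matrix gene matn3 had 5.33 and 5.29 TPM at stage 41, against 66.6 and 59.5 TPM at stage 40 (-3.34 ± 0.40). The collagen-binding proteoglycan gene fmod had 19 and 9.67 TPM at stage 41, against 198 and 134 TPM at stage 40 (-3.49 ± 0.39). The cartilage collagen gene col9a1 had 8.12 and 8.49 TPM at stage 41, against 41.5 and 61.6 TPM at stage 40 (-2.47 ± 0.44). Other cartilage genes did not pass the test, matn1 with 339 and 352 TPM at stage 41 and 399 and 435 TPM at stage 40 and col2a1a with 185 and 134 TPM at stage 41 and 168 and 158 TPM at stage 40. Among 35 collagen and matrix genes, 9 rose and 3 fell, the third fall beside col9a1 and col8a1 being the basement membrane gene col4a5, and leaving out single libraries gave 6 to 9 rises.

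Few skeletal muscle genes changed, and those that did rose. Of 23 markers 3 were called higher and none lower, with a median of 0.06, beside rises in 5.22% of all genes tested. Of 13 cardiac markers none was called. The fast myosin light chain gene mylpf had 8346 and 11945 TPM at stage 41, against 1097 and 1320 TPM at stage 40 (3.05 ± 0.55, limma adjusted p = 0.00097). The fast myosin-binding protein gene mybpc2 had 38.4 and 43.4 TPM at stage 41, against 5.0 and 3.42 TPM at stage 40 (3.02 ± 0.27). Muscle actin, acta1, the most abundant of the list, had 22013 and 20092 TPM at stage 41 and 29633 and 17854 TPM at stage 40 and was not called. Both fast fibre genes rose about 8-fold, while actn3, an actin cross-linker, and neb, the thin filament protein nebulin, were not called. The muscle ubiquitin ligase gene fbxo32, which rises in fasting muscle of mammals, had 9.79 and 15.9 TPM at stage 41, against 1.84 and 3.91 TPM at stage 40 (1.86 ± 0.47), a call lost without the Hd-rR library of stage 40 and without the d-rR / Qurt library of stage 41.

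Several genes of lipid and sterol synthesis rose. Of 14 fatty acid synthesis genes 5 were called higher, of 22 cholesterol synthesis genes 3, and of 21 fatty acid oxidation genes 1, with no fall in the 3 lists, beside rises in 5.22% of all genes. The fatty acid elongase gene elovl5 had 109 and 352 TPM at stage 41, against 20.3 and 16.3 TPM at stage 40 (3.36 ± 0.52, limma adjusted p = 0.00023). The lipid droplet coat gene plin2 had 99.9 and 189 TPM at stage 41, against 23.5 and 7.02 TPM at stage 40 (3.31 ± 0.51). The sterol oxidase gene msmo1 had 115 and 221 TPM at stage 41, against 24.8 and 49.1 TPM at stage 40 (2.16 ± 0.41), and sc5d, later in the same pathway, had a call that was lost without each of the 4 libraries in turn. The fatty acid list had 3 rises without the Hd-rR library of stage 41 or the d-rR / Qurt library of stage 40. The cholesterol list had 5 rises without the Hd-rR library of stage 41 and 1 without the Hd-rR library of stage 40, 7 with the replicate number as a block over 22 libraries, and 0 with the 4 libraries alone. In the thyroid hormone list 3 of 9 were called higher: dio2, the deiodinase gene that makes active hormone, had 17.7 and 25.9 TPM at stage 41, against 0.793 and 1.82 TPM at stage 40 (3.32 ± 0.25). The deiodinase gene dio1 had 29.5 and 57.4 TPM at stage 41, against 5.82 and 11.0 TPM at stage 40 (2.22 ± 0.44), and tpo, of hormone synthesis, had a call at low level that was lost without either library of stage 40 and without the d-rR / Qurt library of stage 41. The hormone receptor gene thrb was not called. Exocrine pancreas markers had no call of 4, with cpb1, carboxypeptidase B, at 469 and 338 TPM at stage 41 and 138 and 117 TPM at stage 40 (1.64 ± 0.61, adjusted p = 0.075). Outside the lists and named after its values were seen, the trypsin gene tryp had 9846 and 6348 TPM at stage 41, against 2494 and 1544 TPM at stage 40 (2.01 ± 0.61, adjusted p = 0.028).

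Lists of genes that most cells use had few calls, where 5.22% of all genes tested were called higher and 9.71% lower. None of 66 ribosomal protein genes, 35 chromatin and RNA processing genes and 24 heat shock genes was called by limma at either side, and of 57 oxidative phosphorylation genes 1, sdhd, was called lower, a call lost without 3 of the 4 libraries in turn and under both other scalings, and 3 were lower with the replicate number as a block over 22 libraries. Of 76 DNA replication and mitosis genes 4 were called higher, a share near that of all genes. These were the cyclin genes ccnb2, ccna2 and ccnb1 and the kinase gene aurka. A positive difference was seen for 74 of the 76, with a median of 0.52 beside -0.22 over all genes. That list had 26 rises after quantile normalization and 1 or 2 without single libraries. The median of ribosomal protein genes was -0.15 as deposited, -0.18 after quantile normalization and 0.07 with median-of-ratios scaling, with 1 of the 66 called higher there, so its sign depended on the scaling.

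**Figure D5:**
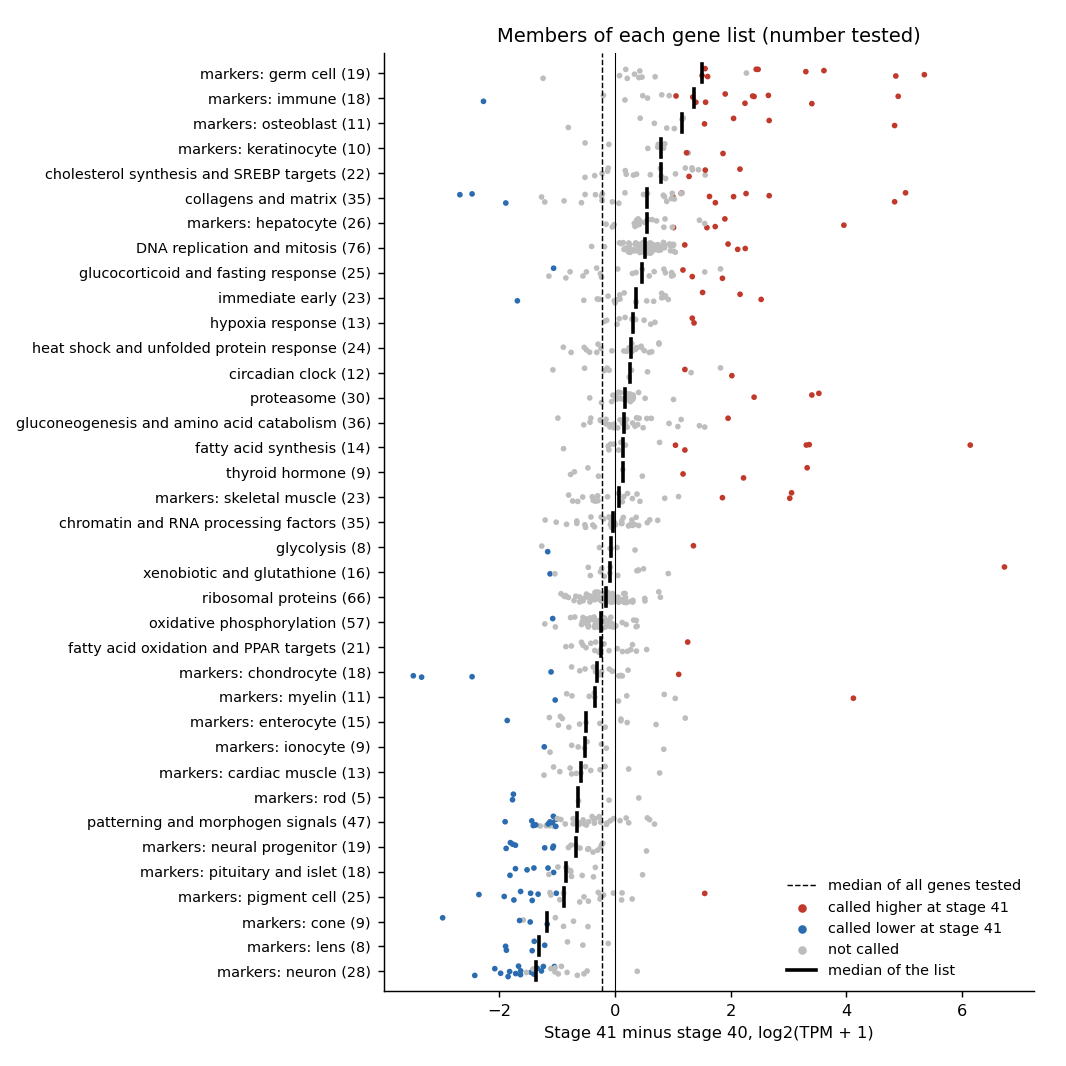
Differences between stage 41 and stage 40 on log2(TPM + 1) for the members of each list with at least 5 genes tested (number in brackets), red where called higher and blue where called lower, with the list median as a black bar and the median of all genes as a dashed line at -0.22. Germ cell and immune markers have the highest medians, at 1.51 and 1.37, and neuron and lens markers the lowest, at -1.37 and -1.31. The lists were chosen with earlier results of these data known.

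Long noncoding RNAs gave 6 rises and 32 falls among 314 tested (1.91 and 10.2%, beside 5.22 and 9.71% of all genes), with a median of -0.35, and 20 falls without the d-rR / Qurt library of stage 40. IGDB14925, in the chromosome 15 run, had 41.3 and 102 TPM at stage 41, against 0.257 and 0.122 TPM at stage 40 (5.79 ± 0.42, limma adjusted p = 2.9e-08). IGDB19918 had 432 and 61.4 TPM at stage 41, against 36.5 and 4.90 TPM at stage 40 (3.47 ± 0.99, adjusted p = 0.021), a call lost without the Hd-rR library of stage 41 and without the d-rR / Qurt library of stage 40. The largest fall was that of IGDB21444, with 0.936 and 1.33 TPM at stage 41, against 8.32 and 9.05 TPM at stage 40 (-2.19 ± 0.35).

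The strains could be compared in the size of their step only with a spread taken from the other 9 stages, since each strain has 1 library per stage. This test called 83 genes of 21179 (0.392%), 41 with the larger value and 42 with the smaller value in d-rR / Qurt. The number moved between 7 with a pseudocount of 0.1 TPM and 264 without a filter on low values. Across all genes tested the change in d-rR / Qurt and the change in Hd-rR had the same sign for 71.0%. Only 3 called genes with a symbol reached 10 TPM in a library, and they are lox, kbtbd12 and cldn11. The collagen cross-linking enzyme gene lox had 11.9 and 75.3 TPM at stage 41, against 46.1 and 20.5 TPM at stage 40, so that it was higher in the larvae of d-rR / Qurt and lower in those of Hd-rR. The tight junction gene cldn11 rose in both strains, to 24.8 and 70.0 TPM at stage 41, against 1.94 and 1.06 TPM at stage 40. The gene kbtbd12 had 12.6 and 3.80 TPM at stage 41 and 3.11 and 10.9 TPM at stage 40, higher in the larvae of Hd-rR and lower in those of d-rR / Qurt.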

How the data were processed

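Poly(A) RNA of pooled whole medaka embryos or larvae was sequenced from stranded libraries. The authors aligned reads with HISAT2 2.1.0 and estimated abundance with StringTie 1.3.3b, and the deposited values used are TPM for 26549 gene models in 22 libraries of 11 stages, with 2 libraries a stage. TPM keep no read depth, and the precision that depth gives is unknown. The genome build is not given in the sources used here.

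A symbol was taken from RefSeq (ASM223467v1) where the spans of a model and a RefSeq gene shared at least 0.5 of their union. This gave 18106 matches, 9404 of them with a symbol, against 2326 matches after a shift of 200000 bases. Roles follow these symbols.

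Values were taken as log2(TPM + 1) for 21179 genes with at least 1 TPM in 2 libraries. A mean per stage was fitted in limma 3.58.1 (R 4.3.3) with a variance trend over 22 libraries, with Benjamini-Hochberg adjustment over all genes of the contrast. Python 3.11.15, numpy 2.4.6, pandas 2.3.3 and matplotlib 3.10.9 were used besides. The fit was tested on simulated data: of 50 genes each changed by log2 1, 2, 3 and 4, it called 4, 68, 96 and 100%, with 6 false calls among 20979 unchanged genes. The changed genes were drawn from the more abundant genes only, and the simulated noise was normal, with no strain difference. These rates were thus not tested for changed genes at low levels or for libraries of unlike strains.

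Named genes were the 15 largest rises and falls with a symbol, at least 10 TPM at the higher stage, no overlap of the stages and a 2-fold change in each strain, the 3 largest called members in each direction and the most abundant member of each of 41 lists, the 3 largest called transcription factors and long noncoding RNAs in each direction, and the genes with the largest strain difference. Other list members are named to complete the account of a list, after their values were seen. The members and lists were chosen with earlier results of these data known. The 2 strains at stages 40 and 41 are numbered alike, and the correlation across genes of library 2 minus library 1 at the 2 stages was 0.35, over only 2 pairs. The same difference between numbers at stage 41 correlated at 0.137 to 0.329 with those of the 9 other stages, where both libraries are Hd-rR, so the replicate number was also fitted as a block. Alternatives changed the pseudocount, filter, scaling, variance trend, blocks, fold minimum and libraries. The adult gonad table was not used here. Some genes are not reported here.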

Additional observations from a re-analysis of the deposited data

Results flagged for a closer look

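Among genes with a symbol and at least 10 TPM in a library, 3 were called for a strain difference. The difference is in the size of the step from stage 40 to stage 41. Other genes with a symbol, such as arhgap11b and bco2, were called at lower levels. The test takes its spread from the 9 other stages, since each strain has 1 library a stage. For lox, the difference of d-rR / Qurt minus Hd-rR was 3.69 (limma adjusted p = 0.021), with changes of 1.83 in d-rR / Qurt and -1.86 in Hd-rR. The value for kbtbd12 was -3.03 (adjusted p = 0.037), with changes of -1.30 in d-rR / Qurt and 1.72 in Hd-rR. For cldn11 it was 1.97 (adjusted p = 0.0057), with changes of 5.11 in d-rR / Qurt and 3.14 in Hd-rR. None of the 3 passed with a pseudocount of 0.1 TPM (adjusted p = 0.606, 0.972 and 1.0 for lox, kbtbd12 and cldn11), with a filter of 5 TPM (0.0511, 0.0867 and 0.0511) or without the variance trend (0.0592, 0.158 and 0.0984). Strain and replicate number cannot be told apart.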

How the results depend on the processing

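With a pseudocount of 5 TPM the calls numbered 686 rises and 753 falls, with the 4 libraries alone 477 and 451, and at a 4-fold minimum 485 and 171. With the Hd-rR libraries only there were 804 rises and 738 falls, and with the d-rR / Qurt libraries only 884 and 908. Without single libraries there were 888 to 1048 rises and 1285 to 1611 falls, and the median of all genes ran between -0.323 and -0.13. That median was -0.067 after quantile normalization and -0.038 with median-of-ratios scaling. Calls in the 41 lists numbered 146 in all, and 61 with the 4 libraries alone, 69 with the Hd-rR libraries only, 81 with the d-rR / Qurt libraries only and 45 at a 4-fold minimum. Of 111 named genes called, 66, 62, 69 and 60 were called under these 4 settings in the same order, and 43 under every alternative. Among named genes called in either fit, lox was the 1 whose sign turned, to 1.83 with the d-rR / Qurt libraries only. Genes called in neither fit, such as acta1, IGDB09454, IGDB25177 and kbtbd12, also differed in sign between fits or strains. The strain test called 7 genes with a pseudocount of 0.1 TPM and 164 with 5 TPM, 264 without a filter and 9 with a filter of 5 TPM, 153 after quantile normalization, 131 with median-of-ratios scaling and 11 without the variance trend. With a replicate block the calls numbered 1228 rises and 2390 falls over 22 libraries and, with strain as the block in 4 libraries, 1128 and 2160, with 9 of the 111 named calls lost, pmel and rhag among them. Where a limit on low TPM matters, genes under 1 TPM are compressed by the pseudocount. Scaling by spike-in RNA and the search for promoter motifs were not run. The causes of these differences were not tested.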

Other observations

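Immediate early genes gave 3 rises and 1 fall of 23, where 5.22% of all genes tested were called higher and 9.71% lower. The nuclear receptor gene nr4a3 had 64.6 and 46.5 TPM at stage 41, against 13.1 and 5.67 TPM at stage 40 (2.53 ± 0.36, limma adjusted p = 0.00011), while its relative nr4a2 was called lower. Among 10 keratinocyte markers, dsp, the desmosomal plaque protein gene, had 184 and 133 TPM at stage 41, against 44.8 and 39.5 TPM at stage 40 (1.87, adjusted p = 0.00076), and anxa1 had a call that was lost without 3 of the 4 libraries in turn and with strain as a block in 4 libraries. That list had 1 rise without either library of stage 41 and without the Hd-rR library of stage 40. Of 9 ionocyte markers, rhbg, an ammonia transporter gene of gill and skin, was the 1 fall, a share near the 9.71% of all genes. It had 62.7 and 88.7 TPM at stage 41, against 169 and 182 TPM at stage 40. This call was lost without the Hd-rR library of stage 41 and without the d-rR / Qurt library of stage 40.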
